A study of Homo sapiens with 6 samples.

Results

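The clustered histone genes are the replication-dependent genes for the core histones H2A, H2B, H3 and H4 and for the linker histone H1. They were taken from the count table by their symbols (H1-1 to H1-6, and symbols that begin with H2AC, H2BC, H3C or H4C and a number). The rule found 70 genes among 20381, with 6 in the H1 family, 17 in H2A, 19 in H2B, 13 in H3 and 15 in H4. They were read in HCCLM3, a human hepatocellular carcinoma (HCC) cell line with low PON1 expression, by RNA-seq of poly(A) RNA captured on oligo(dT) beads. The 3 PON1-OE libraries came from cells that stably carried a lentivirus with the PON1 coding sequence. The 3 NC libraries came from cells with an empty lentiviral vector as the negative control, and both groups were grown in RPMI-1640 with fetal bovine serum. The paper describes puromycin-selected stable lines, while the series' design text gives lysis 1 day after transfection and another serum content. The origin of the 3 libraries of a group (cultures, infections or RNA samples) is not stated in any source used here, so p-values measure only the spread between these libraries, which may be technical.

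Most mRNAs end in a poly(A) tail, but replication-dependent histone mRNAs are the known exception. Their 3′ end is made by a cut just after a conserved stem-loop, which is bound by the stem-loop binding protein SLBP, and no tail is added. They are made in S phase, when new DNA has to be packed into nucleosomes, and are degraded when replication stops. Oligo(dT) beads capture tails, so mRNAs without one are largely lost from such libraries. Some of these genes are known to give rise to longer, polyadenylated transcripts as well, and several genes of a family encode the same protein. The level of a clustered histone gene in poly(A) libraries is thus no measure of all its mRNA.

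The stem-loop was read from the GENCODE v29 transcripts of the abundant members, because it marks where the tailless end lies. Below, the 16 bases of the stem-loop stand in capitals, with 5 bases of flank on each side in lower case, for members whose annotated transcripts hold it.
H2AC6: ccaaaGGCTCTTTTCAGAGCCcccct
H2AC18: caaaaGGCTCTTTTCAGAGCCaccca
H2AC19: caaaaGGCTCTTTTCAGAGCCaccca
H2BC5: ccaaaGGCTCTTTTAAGAGCCacgca
H2BC21: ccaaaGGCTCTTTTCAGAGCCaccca
H4C8: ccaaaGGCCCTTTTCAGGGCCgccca
H4C14: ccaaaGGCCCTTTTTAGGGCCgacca
H4C15: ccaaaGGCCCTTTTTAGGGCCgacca
The windows of H2AC18 and H2AC19 had the same letters, as did those of H4C14 and H4C15. The other abundant members, H2BC12 and H1-2, are annotated there only up to the stop codon, so that no stem-loop could be read for them.

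The libraries held 15706672 to 17948383 estimated counts, and levels are given as CPM, counts per library total after TMM scaling. In CPM, 3 counts were worth 0.166 to 0.192, a floor that covers counting error only. PON1 itself, the gene for the secreted enzyme paraoxonase 1, had 0, 2 and 3 counts in the NC libraries and 155, 181 and 167 in the PON1-OE libraries, as the labels say. Of the hepatocyte markers, KRT8, KRT18 and HNF4A were expressed, while the genes of the secreted proteins ALB, AFP, TTR, APOA1, APOA2 and SERPINA1 stayed below 1 CPM on average in both groups and FGB was at 1.02 CPM in NC against 0.668 CPM in PON1-OE. APOB, at 5.77 CPM in NC against 4.49 CPM in PON1-OE, was the 1 liver marker of 7 tested with an unadjusted p under 0.05 (log2FC −0.36, unadjusted p = 0.0456 by edgeR, and 0.138, 0.137 and 0.183 without NC 1, NC 3 and PON1-OE 2), and its part in the histone results was not tested. Over all genes tested, 11.1% had an unadjusted p under 0.05 in either direction. The liver marker list's summed level was 3736 to 4235 CPM in NC against 3888 to 4121 CPM in PON1-OE. Of 8 markers of blood, stromal and endothelial cells, 4 were at or under 3 counts in every library, among them PTPRC at 0. COL1A1 and VWF stayed below 1 CPM on average. PECAM1 was at 13.1 CPM in NC against 15.1 CPM in PON1-OE (unadjusted p = 0.0512 by edgeR). CD68 was at 215.1 CPM in NC against 235.1 CPM in PON1-OE, most of this list's summed level. CD68 was called at an unadjusted p of 0.00943 from edgeR's quasi-likelihood test (0.0671 without NC 3 and 0.0851 without PON1-OE 3), and this list's summed level was 219.9 to 239.9 CPM in NC against 238.4 to 264.4 CPM in PON1-OE. Its part in the histone results was not tested. The mitochondrially encoded genes took 0.697% to 0.785% of the counts.

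Clustered histone genes were seen in every library, but at a low level and through few members. Of the 70 members, 38 had more than 3 counts in at least 1 library, 24 had more than 3 in every library, and 16 reached a mean of 1 CPM. In 11 members every library was at 0, namely H1-1, H1-6, H2AC1, H2BC1, H2BC10, H2BC14, H2BC26, H3C8, H3C14, H4C6 and H4C7. A count of 0 allows up to 3 counts, so these genes were not detectable at this depth. For H3C14, reads may also have been given to H3C15, which has the same annotated exon length and stem-loop window. Another 21 members peaked at 1 to 3 counts. These were H1-3, H2AC4, H2AC12, H2AC21, H2AC25, H2BC3, H2BC7, H2BC9, H2BC12L, H2BC13, H2BC17, H3C1, H3C3, H3C7, H3C11, H3C12, H3C13, H4C1, H4C2, H4C4 and H4C13. The families differed in how many members were seen above 3 counts, with 12 of 17 in H2A, 9 of 19 in H2B, 5 of 13 in H3, 9 of 15 in H4 and 3 of 6 in H1. edgeR's filter on low counts kept 23 members for testing (7 of H2A, 7 of H2B, 4 of H3, 4 of H4 and 1 of H1). H4C11 was seen in a single library, PON1-OE 1, with an estimated 7.78 counts against 0 in the other 5 libraries. The only non-whole count of H4C12, 1.22, fell in that same library. Reads may thus have been divided between H4C11 and H4C12, which was not tested.

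**Figure D1:**
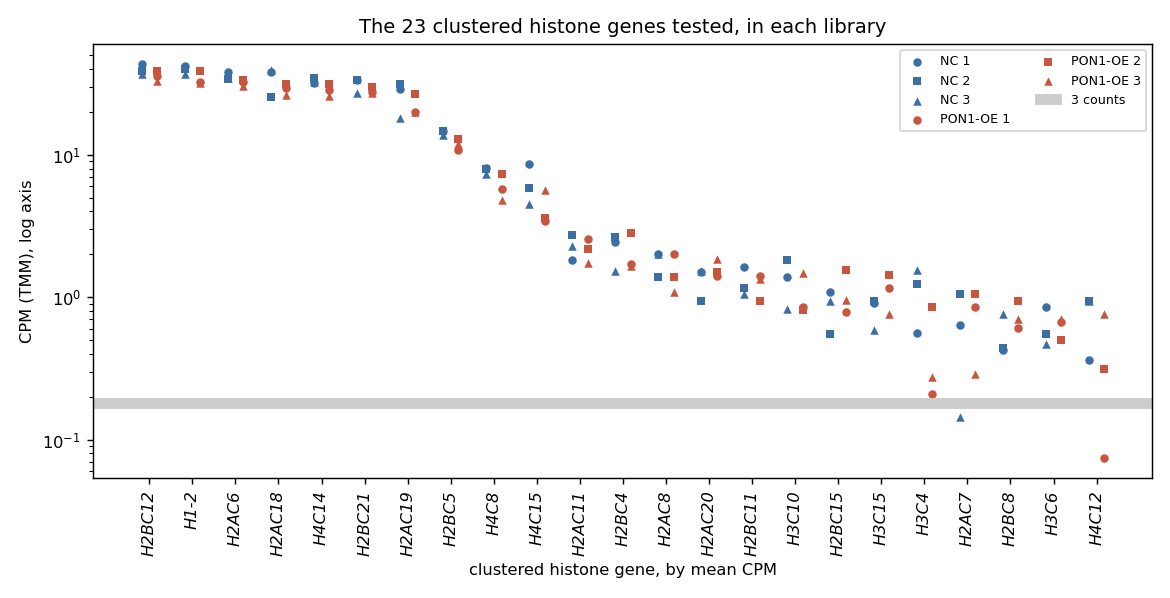
CPM (TMM-scaled, log axis) of the 23 clustered histone genes tested in each of the 3 NC (blue) and 3 PON1-OE (red) libraries, ordered by mean CPM; the grey band is the CPM of 3 counts, 0.166 to 0.192. The level falls from 37.7 CPM for H2BC12 to 5.28 CPM for H4C15 over the first 10 genes, and the next gene, H2AC11, lies at 2.22 CPM.

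All members together summed to 306.1, 286.8 and 270.8 CPM in the NC libraries and to 244.5, 274.3 and 235.2 CPM in the PON1-OE libraries. This was 0.0235% to 0.0306% of a library. The listed replication-independent histone variants, whose mRNAs mostly carry a poly(A) tail, summed to a mean of 2537 CPM over the 6 libraries. The clustered members summed to a mean of 269.6 CPM. These sums are not scaled by gene length. Among the clustered members, 10 took 92.7% of the summed CPM and 5 took 63.3%. The 10 are H2BC12, H1-2, H2AC6, H2AC18, H4C14, H2BC21, H2AC19, H2BC5, H4C8 and H4C15, all with a mean of at least 50 counts, a limit set after their values were seen. The 10th of them, H4C15, averaged 88.0 counts over the 6 libraries, and the next member, H2AC11, averaged 37.1 counts.

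Per kilobase of coding sequence, H2BC12, the gene of an H2B protein, led with 99.1 CPM, and H4C14, which encodes H4, followed with 98.1 CPM. H2AC6 stood at 85.9 CPM per kilobase of coding sequence, H2AC18 at 80.3 and H2BC21 at 77.9. The linker histone gene H1-2 reached 57.7 CPM on this scale. Per kilobase of annotated exon, H4C14 was at 16.3 and H2BC21 at 13.5 CPM, since their annotated exons run far beyond the coding part, while H2BC12 kept 99.1 because its annotation holds no untranslated bases. The order of levels therefore depended on the annotated length. H3 was the family seen least, with 1.49% of the summed CPM of all members, and its highest members, H3C10 and H3C15, averaged 1.20 and 0.966 CPM without scaling by length. H2A held 35.9% of the summed CPM, H2B 32.2%, H4 16.6% and H1 13.9%, of which H1-2 was nearly all. H1-4 and H1-5, other linker histone genes, had at most 6 and 5 counts in a library.

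In GENCODE v29, whose identifiers matched 66 members (the other 4 were matched by an older symbol), 55 members lie on chromosome 6 and 13 on chromosome 1 of GRCh38, with H4C16 on chromosome 12 and H2BC12L on chromosome 21. The annotation that the authors counted on is not given in the sources used here. The annotated 3′ ends differed among members. For 34 members the transcript ends at the stop codon, and 12 of these were seen above 3 counts and 2 were among the 10 abundant members. For 23 members a transcript runs more than 100 bases past the stem-loop, and 17 of these were seen above 3 counts and 5 (H2AC6, H2BC21, H4C8, H4C14 and H4C15) were abundant. Transcripts of 7 members end within 100 bases after the stem-loop, among them H2AC18 and H2AC19, of which 5 were seen above 3 counts. Of the members outside these classes, 2 (H2BC5 and H2BC11) have a transcript with a 3′ untranslated region of over 100 bases without the stem-loop, and both were tested. Such a transcript is annotated also for H2AC6, H2BC4, H2BC15 and H2BC18, which were counted in the class that runs past the stem-loop. The remaining 4 members have a shorter one without it, and 2 were seen above 3 counts. The median of the members' mean counts was 1.03 in the class that ends at the stop codon and 10.3 in the class that runs past the stem-loop. A spliced transcript is annotated for 5 of the 10 abundant members and for 8 of the other 60. An annotation is itself built in part from polyadenylated cDNA, and a longer one collects more reads, so that these counts are a description and not a test.

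**Figure D2:**
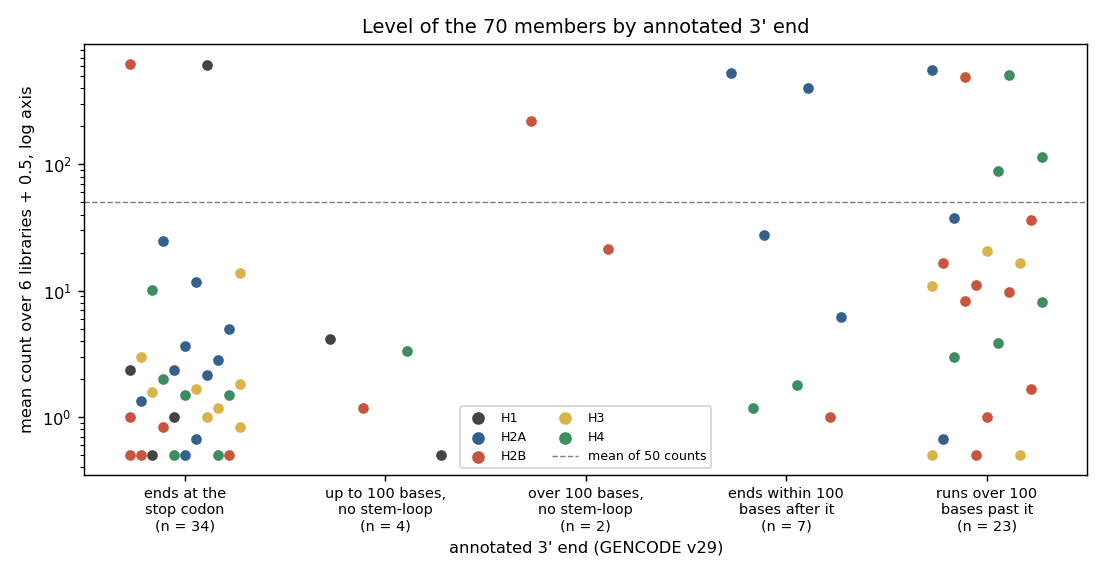
Mean count of each of the 70 members over the 6 libraries plus 0.5 (log axis), by the 3′ end of its GENCODE v29 transcripts relative to the stop codon and the stem-loop; colours mark the families. The 10 points above the dashed line at 50 counts lie in 4 of the 5 classes, and 5 of them are in the class that runs past the stem-loop.

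Promoters were read from RefSeq on GRCh38.p14 (250 bases before the transcript start to 50 after it) for the 64 members that matched. Motifs were searched as exact letters on both strands. A TATA box (TATAAA) was found in 42 of the 64 member promoters against 11.5% of the 35116 promoters in the table. The CCAAT box (CCAAT) was found in 54 of 64 against 34.6%, and the octamer ATTTGCAT, known from H2B promoters, in 26 of 64 against 1.77%. The families differed. CCAAT was found in every matched H1, H2A, H2B and H3 promoter but in 3 of 13 H4 promoters, and the octamer in 14 of 18 H2B, 11 of 16 H2A, 1 of 11 H3 and no H1 or H4 promoter. The H3 promoter with the octamer is that of H3C4, whose window (chr6:26199244-26199543) is also that of H2AC7, so the same bases were counted in both families. The windows of H2AC1, H2AC6, H2AC7, H2AC8, H2AC11, H2AC14, H2AC17 and H2AC20 overlap those of H2BC1, H2BC4, H2BC7, H2BC8, H2BC11, H2BC14, H2BC17 and H2BC21, in this order. Each of these windows holds 1 octamer, found on either strand, so shared bases were counted in both families. The motif counts are thus not counts of separate sequences. Among the 9 H2B members seen above 3 counts the octamer was in 7. The 10 abundant members held TATAAA in 6, CCAAT in 7 and the octamer in 3, so that they did not hold these letters more often than the other 54, with 36, 47 and 23. H4C14, H4C15 and H4C8 held none of these motifs in this window.

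The 250 bases before the start are shown for the highest H2B and H4 members and for H2AC18 of the H2A copies described next, with the 3 motifs in capitals; adjoining or overlapping matches run together. The window of H2BC12 is chr6:27146859-27147108 (minus strand), that of H2AC18 is chr1:149842751-149843000 (minus strand) and that of H4C14 is chr1:149832407-149832656 (plus strand).
H2BC12: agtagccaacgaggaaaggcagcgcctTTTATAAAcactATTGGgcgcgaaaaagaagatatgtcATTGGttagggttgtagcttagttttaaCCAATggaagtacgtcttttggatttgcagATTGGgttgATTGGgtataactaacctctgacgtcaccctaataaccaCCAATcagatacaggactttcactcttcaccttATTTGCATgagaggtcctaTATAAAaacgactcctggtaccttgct
H2AC18: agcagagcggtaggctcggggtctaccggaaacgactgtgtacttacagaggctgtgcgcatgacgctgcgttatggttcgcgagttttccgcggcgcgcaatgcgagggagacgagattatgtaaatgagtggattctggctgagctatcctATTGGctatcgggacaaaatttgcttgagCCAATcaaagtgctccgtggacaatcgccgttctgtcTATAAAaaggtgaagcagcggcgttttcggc
H4C14: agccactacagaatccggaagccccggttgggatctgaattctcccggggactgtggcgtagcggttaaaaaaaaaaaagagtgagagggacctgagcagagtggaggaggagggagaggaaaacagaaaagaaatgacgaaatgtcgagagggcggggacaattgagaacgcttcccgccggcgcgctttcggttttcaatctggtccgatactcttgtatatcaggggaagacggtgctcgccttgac
The 300-base promoter window of H4C15 had the same letters as that of H4C14, and that of H2AC19 had the letters of H2AC18 shifted by 1 base.

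Because of such copies, the count of a single member can depend on how reads were divided. Non-whole estimated counts were found in 14 members, and in H2AC18, H2AC19, H4C14, H4C15, H3C4 and H2AC7 in all 6 libraries. H2AC18 (chromosome 1, 149842188 to 149842736, minus strand) and H2AC19 (149851061 to 149851624, plus strand) had no mismatch over 393 coding bases. H4C14 (149832659 to 149839767, plus strand) and H4C15 (149854045 to 149861210, minus strand) had none over 312 coding bases. H4C8, on chromosome 6, encodes the same H4 protein, as do 14 of the 15 H4 members in all, but differed from H4C14 at 53 of 312 bases. The first 60 coding bases are shown with capitals at the 14 places where H4C8 differs from H4C14 and H4C15.
H4C14: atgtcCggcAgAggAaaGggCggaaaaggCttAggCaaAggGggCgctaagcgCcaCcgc
H4C15: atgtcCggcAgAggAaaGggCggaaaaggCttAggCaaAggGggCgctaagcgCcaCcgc
H4C8: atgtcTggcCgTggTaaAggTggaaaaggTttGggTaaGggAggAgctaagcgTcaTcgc
Reads from this stretch could be told apart for H4C8, but not between H4C14 and H4C15.

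The counts of the 2 copy pairs added up to whole numbers (within 0.015) where the single members did not. H2AC18 and H2AC19 together had 1104, 1024 and 980 counts in the NC libraries and 809, 926.94 and 725 in the PON1-OE libraries, whole in 5 of 6. The share given to H2AC18 moved between 44.9% (NC 2) and 68.3% (NC 3) within the NC group alone. The within-group coefficient of variation (CV) was 17.9% for H2AC18 and 23.1% for H2AC19, and 10.6% for their sum. H4C14 and H4C15 together had 665, 727 and 629 counts in NC against 523, 558 and 491 in PON1-OE, whole in all 6 libraries. The share given to H4C14 was 78.5% to 89.6%. Their CV was 7.27% and 32.9%, and that of the sum was 5.37%. The sums therefore varied less between libraries than their parts.

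H3C4 and H2AC7 formed a similar case. Both genes lie within a gene without a symbol (ENSG00000282988, chromosome 6, 26195595 to 26199293) on the same strand and share exonic bases with it. The 3 genes summed to 71, 91.99 and 64.99 counts in the NC libraries and to 47.01, 84 and 51 in the PON1-OE libraries, whole within 0.015 in each. H3C4 alone had 9.30, 22.25 and 26.39 counts in NC against 3.44, 13.61 and 4.28 in PON1-OE. H2AC7 alone had 10.48, 19.10 and 2.44 in NC against 14.04, 16.85 and 4.50 in PON1-OE. In NC 3, H3C4 had its highest count and H2AC7 its lowest. H4C14 overlaps exons of H3C14 and H4C15 those of H3C15 on the opposite strand. Whether the counting used strand is not stated. H3C14 was at 0 in every library and H3C15 at 10 to 23 counts. Both have 1656 annotated exon bases, the same stem-loop window and the same protein. How reads were divided between H3C14 and H3C15 is not known, so their counts cannot show whether strand was used.

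**Figure D3:**
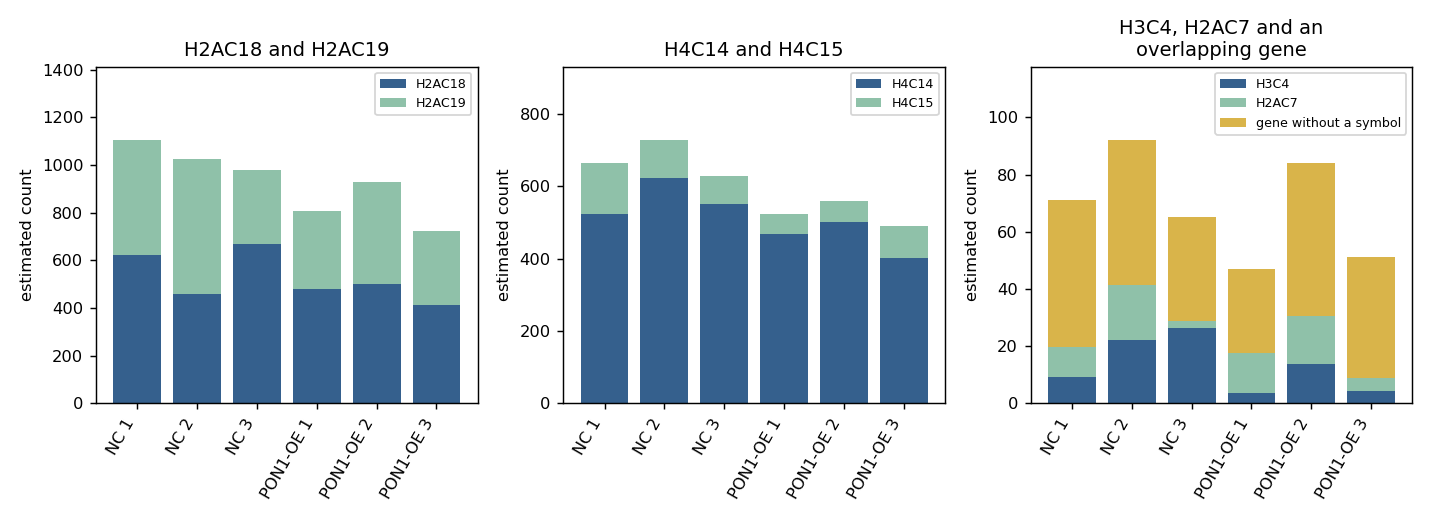
Estimated counts per library, stacked, for H2AC18 and H2AC19, for H4C14 and H4C15, and for H3C4, H2AC7 and the overlapping gene without a symbol. The height of a bar is the sum over the features; within NC the H2AC18 part of its bar runs from 44.9% to 68.3%.

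The comparison of PON1-OE with NC asked whether overexpression of PON1, in a line with little of its own, went with another level of these genes. No clustered histone gene passed the adjusted threshold, and the members with a low unadjusted p were lower in PON1-OE. For any difference between these bulk libraries, fewer cells in S phase and less polyadenylated histone mRNA per cell cannot be told apart, and neither was tested here. By flow cytometry of PON1-overexpressing HCCLM3 cells, the paper reports arrest at G0/G1 and fewer cells in G2/M. Its text gives no S-phase share. With edgeR's quasi-likelihood test, 6 of the 23 members tested had an unadjusted p under 0.05, all 6 lower in PON1-OE, whereas 5.17% of the 11958 genes tested were called lower and 5.91% higher. With Benjamini-Hochberg adjustment over all genes tested no member had an adjusted p under 0.05 (0.677% of all genes did), and the smallest adjusted p of a member was 0.276, for H2BC5. A log2FC below 0 was found in 17 of the 23 members, against 51% of all genes tested, and the median log2FC was −0.15, against −0.0025 over all genes tested. The 6 called members are not 6 separate observations, since H4C14 and H4C15 shared reads. The count of called members was 1 of 25 tested (H4C14) without PON1-OE 1, where 10.7% of all genes tested were called. It was 3 of 25 without PON1-OE 3 (8.29% of all genes tested). It reached 9 of 24 without PON1-OE 2 (12.9% of all genes tested). Without NC 2, H2AC18 passed with an adjusted p of 0.0167, where its alternatives ranged up to 0.848.

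H2BC5, an H2B gene on chromosome 6, had 14.8, 14.7 and 13.8 CPM in the NC libraries and 10.8, 12.9 and 11.9 CPM in the PON1-OE libraries. Every PON1-OE library lay below every NC library. Its log2FC was −0.28 (SE 0.103, unadjusted p = 0.0120, adjusted p = 0.276 by edgeR), and the unadjusted p was 0.0680 without PON1-OE 1. H1-2, the gene of the linker histone H1.2, had 42.3, 40.0 and 37.1 CPM in NC against 32.2, 38.6 and 32.0 CPM in PON1-OE. The groups overlapped here, as PON1-OE 2 lay above NC 3. Its log2FC was −0.21 (SE 0.0787, unadjusted p = 0.0131, adjusted p = 0.284 by edgeR), and without NC 1, PON1-OE 1 or PON1-OE 3 the unadjusted p was 0.0740, 0.0723 and 0.0709.

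The abundant H4 genes were lower in PON1-OE as single members and as a sum. H4C14 had 31.6, 34.4 and 32.4 CPM in NC against 28.4, 31.3 and 25.7 CPM in PON1-OE, without overlap. Its log2FC was −0.20 (SE 0.0783, unadjusted p = 0.0163 by edgeR). H4C8, the member with reads of its own, had 8.11, 7.91 and 7.27 CPM in NC against 5.78, 7.38 and 4.79 CPM in PON1-OE. PON1-OE 2 lay just above NC 3, so that the groups overlapped, and the log2FC was −0.37 (SE 0.152, unadjusted p = 0.0230 by edgeR). H4C15 had 8.65, 5.82 and 4.51 CPM in NC against 3.41, 3.62 and 5.68 CPM in PON1-OE, also with overlap. Its log2FC was −0.58 (SE 0.221, unadjusted p = 0.0165 by edgeR). Summed before the fit, H4C14 and H4C15 were at 39.1 ± 1.93 CPM (SD, n = 3) in NC against 32.7 ± 1.92 CPM (SD, n = 3) in PON1-OE, with no overlap and a log2FC of −0.26 (SE 0.0704, unadjusted p = 0.00152, adjusted p = 0.117 by edgeR). This sum was made after the counts were seen. Leaving out single libraries took the unadjusted p over 0.05 for each of the 3 members. It reached 0.115 for H4C14 without PON1-OE 3 (0.0660 without NC 2), 0.143 for H4C8 without PON1-OE 3 (0.0656 without NC 1 and 0.0600 without PON1-OE 1) and 0.210 for H4C15 without NC 1 (0.0806 without PON1-OE 1 and 0.0735 without PON1-OE 2). With DESeq2 the unadjusted p of H4C8 was 0.0512.

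H3C4 had the lowest log2FC of the members tested, −1.32 (SE 0.516, unadjusted p = 0.0187 by edgeR), from 0.563, 1.23 and 1.55 CPM in NC against 0.209, 0.851 and 0.273 CPM in PON1-OE. Summed with H2AC7 and the gene that overlaps both, the log2FC was −0.22 (SE 0.213, unadjusted p = 0.323 by edgeR), and the low p of H3C4 was not found in the sum of the shared counts. The unadjusted p of H3C4 was 0.0509 without NC 2, 0.112 without NC 3, 0.101 without PON1-OE 1 and 0.0836 without PON1-OE 3, and its log2FC was −2.29 without PON1-OE 2. H4C12, another H4 gene, had 0.363, 0.940 and 0.938 CPM in NC against 0.0743, 0.313 and 0.766 CPM in PON1-OE, and its log2FC of −0.99 had an SE of 0.583 and an unadjusted p of 0.105 by edgeR. It was called by limma-voom (log2FC −1.32, unadjusted p = 0.0420), without NC 1 (log2FC −1.31, unadjusted p = 0.0443) and without PON1-OE 3 (log2FC −1.98, unadjusted p = 0.0144), and its log2FC was −0.48 without PON1-OE 1. The 1.22 counts of H4C12 in PON1-OE 1 may be part of reads shared with H4C11, which had 7.78 there. The sum of H4C11 and H4C12 was not fitted. H2AC7 had a log2FC of 0.28 with an SE of 0.562. Values of this size rest on a few counts per library and are known only to within a wide error.

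The other abundant members lay below NC by amounts that missed the threshold. H2BC12 had 43.5, 38.9 and 36.6 CPM in NC against 35.8, 38.6 and 33.1 CPM in PON1-OE, with a log2FC of −0.15 (SE 0.0766, unadjusted p = 0.0707 by edgeR). H2AC6, an H2A gene, had 38.0, 34.0 and 34.6 CPM in NC against 32.5, 33.3 and 30.2 CPM in PON1-OE. Its groups did not overlap, and its log2FC was −0.15 (SE 0.0719, unadjusted p = 0.0502 by edgeR). H2BC21 had 33.2, 33.3 and 27.0 CPM in NC against 27.3, 29.8 and 27.3 CPM in PON1-OE, with a log2FC of −0.15 (SE 0.0837, unadjusted p = 0.0892 by edgeR).
The H2A copies were each close to their sum in log2FC, with a wider error. H2AC18 had 37.8, 25.4 and 39.2 CPM in NC against 29.2, 31.4 and 26.2 CPM in PON1-OE (log2FC −0.24, SE 0.115, unadjusted p = 0.0527 by edgeR). H2AC19 had 29.1, 31.2 and 18.2 CPM in NC against 20.1, 26.6 and 20.0 CPM in PON1-OE (log2FC −0.23, SE 0.142, unadjusted p = 0.113 by edgeR). Their sum was 60.3 ± 5.68 CPM (SD, n = 3) in NC against 51.2 ± 6.07 CPM (SD, n = 3) in PON1-OE, overlapped between the groups, and had a log2FC of −0.23 (SE 0.0770, unadjusted p = 0.00637, adjusted p = 0.218 by edgeR).

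In all 10 abundant members the log2FC was below 0, from −0.15 to −0.58, and the groups did not overlap in H2AC6, H4C14 and H2BC5, which are 3 of the 23 tested, against 7.75% of all genes tested that did not overlap and were lower in PON1-OE. The 13 less abundant members tested had no such common direction. H2AC8, H2AC11, H2BC4, H2BC11, H3C4, H3C10 and H4C12 had a log2FC below 0, while H2AC7, H2AC20, H2BC8, H2BC15, H3C6 and H3C15 had one above 0. Of these, H3C10 (log2FC −0.37, SE 0.366, unadjusted p = 0.319 by edgeR) and H3C15 (log2FC 0.46, SE 0.374, unadjusted p = 0.230 by edgeR), the highest H3 genes, show the width of the error.

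**Figure D4:**
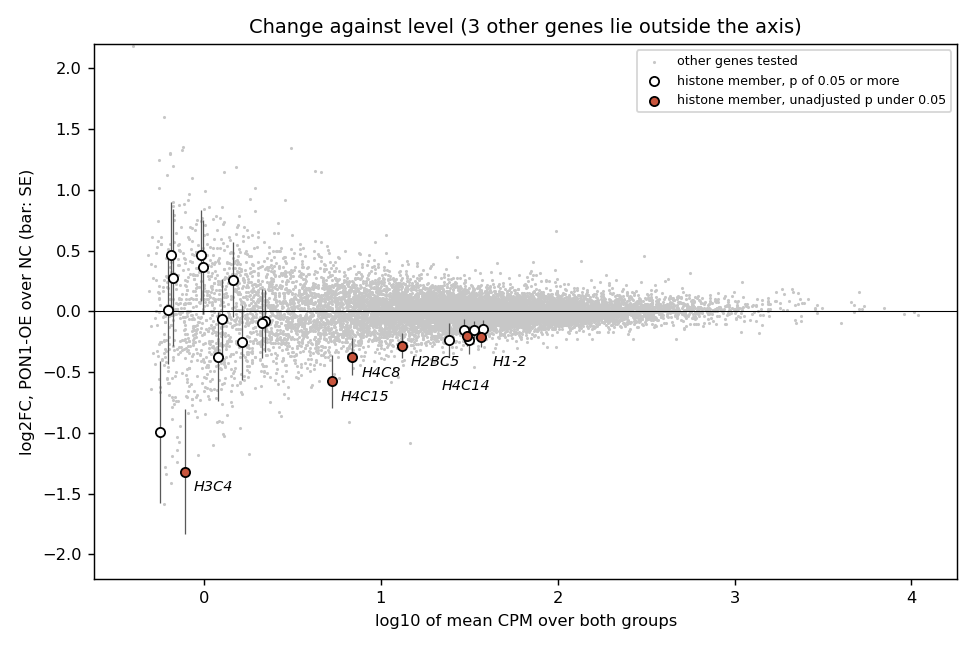
Fitted log2FC (PON1-OE over NC) against the log10 of mean CPM for the genes tested (grey) and the 23 clustered histone genes (circles with SE bars; filled where the unadjusted p was under 0.05). Above 10 CPM (1 on the axis) the filled and open circles lie between −0.15 and −0.28, and below 3 CPM they scatter on both sides of 0.

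The sum over all 70 members was 287.9 ± 17.7 CPM (SD, n = 3) in NC against 251.3 ± 20.4 CPM (SD, n = 3) in PON1-OE, a difference of −12.7%. The groups overlapped, since PON1-OE 2 (274.3 CPM) lay above NC 3 (270.8 CPM). By family, the H4 sum was 49.7, 50.4 and 46.2 CPM in NC against 39.1, 44.03 and 38.5 CPM in PON1-OE, which did not overlap. The H1, H2A, H2B and H3 sums overlapped, and their PON1-OE means differed from the NC means by −13.8%, −12.8%, −9.98% and −10.3%. The 60 less abundant members together summed to 20.1 ± 1.10 CPM (SD, n = 3) in NC against 19.4 ± 1.24 CPM (SD, n = 3) in PON1-OE.

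**Figure D5:**
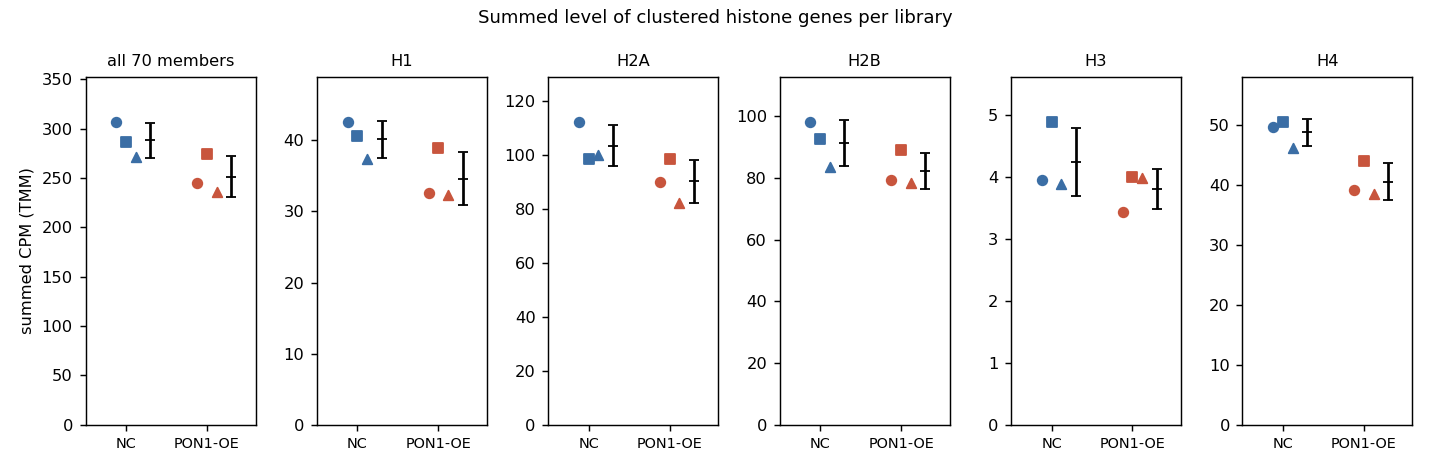
Summed CPM of all 70 members and of each family in the 3 NC (blue) and 3 PON1-OE (red) libraries, replicates 1, 2 and 3 as circle, square and triangle, with mean and SD as black bars; each panel starts at 0 and has its own scale. The groups overlap in every panel but H4, where NC lies at 46.2 to 50.4 and PON1-OE at 38.5 to 44.03 CPM.

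The abundant members moved together from library to library also within a group. PON1-OE 2 was the highest PON1-OE library in 9 of the 10 and PON1-OE 3 the lowest in 8, while NC 1 was the highest NC library in 6 and NC 3 the lowest in 7. The members are thus not independent observations of the groups. The members varied more between libraries of a group than other genes did. The median within-group CV was 23.1% over the 23 members tested and 6.35% over all 11958 genes. How much of this gap goes with level or with reads divided between copies was not tested. The CV was 10.6% for the sum of H2AC18 and H2AC19 and 5.37% for that of H4C14 and H4C15, less than for their parts. A sum can have a lower CV than its parts also without divided reads, so these values cannot decide it. Among genes with a mean of at least 50 counts the median was 9.03% for the 10 members and 5.72% for 10576 genes, and below 50 counts it was 28.6% for 13 members and 24.8% for 1382 genes. The 10576 genes include some with far more counts than any member, so level was matched only loosely. H2AC7 (63.8%), H4C12 (60.5%) and H3C4 (55.8%) had the largest CV, each of them with non-whole counts. Among the abundant members it ran from 5.69% in H2AC6 to 32.9% in H4C15.

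Genes that make, process or replace these mRNAs and their proteins were read from 4 hand-written lists. None of their genes passed an adjusted p under 0.05 in edgeR's test, where 0.677% of all genes did. The lists had 10, 40, 27 and 39 genes tested, some of them in 2 lists. Of these entries, 12 had an unadjusted p under 0.05, with E2F1 counted in 2 lists (11.1% of all genes had one in either direction). Without NC 2, 4 list entries passed the adjusted threshold, with E2F1 counted in each of its 2 lists. Of the replication-independent histone variants, 10 of 17 were tested. H3-3B, which encodes the H3.3 variant, was at 726.2 ± 8.29 CPM (SD, n = 3) in NC against 762.7 ± 17.3 CPM (SD, n = 3) in PON1-OE (log2FC 0.07, unadjusted p = 0.0415 by edgeR), and it was the only one of the 10 with an unadjusted p under 0.05 (5.91% of all genes were called higher). Its p was 0.137 without NC 1, 0.0738 without NC 3 and 0.182 without PON1-OE 3. The list had 7 members above and 3 below 0, with a median log2FC of 0.04.

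The list of histone transcription and 3′ end processing had 40 members tested, of which 2 were higher and 2 lower at an unadjusted p under 0.05 (5.91% and 5.17% over all genes), and its median log2FC was −0.01. SLBP, which binds the stem-loop, was at 73.1 ± 3.46 CPM in NC against 73.1 ± 2.57 CPM in PON1-OE (SD, n = 3), with a log2FC of 0.00086 (SE 0.0540). NPAT, the coactivator of histone gene transcription, had a log2FC of −0.05 (SE 0.0905). SRRT, whose product ARS2 links the cap-binding complex to 3′ end formation, had 64.0, 58.3 and 67.4 CPM in NC against 53.2, 56.9 and 50.4 CPM in PON1-OE. Its groups did not overlap, and its log2FC was −0.24 (SE 0.0641, unadjusted p = 0.00122, adjusted p = 0.104 by edgeR). The transcription factor gene E2F1 (log2FC −0.21, unadjusted p = 0.0325) was the other lower gene, and CSTF3, a cleavage factor subunit (log2FC 0.15, unadjusted p = 0.0477), and SNRPE, a snRNP core protein (log2FC 0.13, unadjusted p = 0.0472), were the higher ones by edgeR. The unadjusted p of SRRT stayed at or below 0.0151 without each library in turn, that of CSTF3 was over 0.05 without any 1 of the 6, and those of E2F1 and SNRPE were over it without NC 1 (0.195 and 0.138), NC 3 (0.163 and 0.125), PON1-OE 2 (0.0987 and 0.158) or PON1-OE 3 (0.130 and 0.111).

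Of 27 histone chaperone genes, 23 had a log2FC below 0 (51% of all genes did) and 4 above, with a median of −0.03, and 1 was called in each direction (5.17% lower and 5.91% higher over all genes). DAXX, an H3.3 chaperone, had a log2FC of −0.20 (SE 0.0619, unadjusted p = 0.00443 by edgeR), and HJURP, the chaperone of the centromeric H3 variant, one of 0.24 (SE 0.0760, unadjusted p = 0.00427 by edgeR). Of 39 S-phase genes, 4 were lower and 1 higher at an unadjusted p under 0.05 (5.17% and 5.91% over all genes), with a median log2FC of −0.02. They include SLBP, E2F1, CCNE1 and CCNE2 of the processing list and MCM2, CHAF1A and CHAF1B of the chaperone list. The checkpoint mediator gene CLSPN (log2FC −0.30, unadjusted p = 0.00302 by edgeR) and the epigenetic regulator UHRF1 (log2FC −0.18, unadjusted p = 0.0124 by edgeR) were lower, as was PCNA, the sliding clamp of replication (log2FC −0.10, unadjusted p = 0.0221 by edgeR). The cyclin gene CCNA2 was higher (log2FC 0.21, unadjusted p = 0.00948 by edgeR). With single libraries left out, the unadjusted p of CLSPN, DAXX and HJURP stayed under 0.05. That of PCNA was 0.139 without NC 1 and 0.0724 without NC 3, that of UHRF1 0.116 without NC 1, 0.0545 without NC 3 and 0.0898 without PON1-OE 3, and that of CCNA2 0.0898 without PON1-OE 3. The summed S-phase list ran from 3412 to 3691 CPM in NC and from 3444 to 3616 CPM in PON1-OE, with PON1-OE 2, the library of the highest histone values in its group, at 3516 CPM between the other two. Its part in the histone values was not tested.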

How the data were processed

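Gene expression was measured by RNA-seq of oligo(dT)-selected RNA from 3 NC and 3 PON1-OE libraries of HCCLM3 cells. The authors deposited 1 table of estimated counts per gene, without normalization, of which 10.5% were not whole. The submitters' processing notes name Bowtie2 2.2.8, HISAT2, StringTie 1.3.1 and DESeq2 without their roles. The counting tool's settings, strandedness, genome build and annotation are not given in the sources used here. Members and gene lists were chosen with earlier results of these data known.

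Counts were rounded and tested in R 4.3.3 with edgeR 4.0.16 (filterByExpr, 11958 genes; TMM; glmQLFit, glmQLFTest; no covariates), with Benjamini-Hochberg adjustment over all genes tested, and the step was tested on simulated data. CPM used the unrounded estimated counts and TMM library sizes. The SE is |log2FC| divided by the square root of F. The within-group CV is the pooled SD over the mean. Named were the 3 highest members per family, every member with an unadjusted p under 0.05, the 3 with the largest CV, undetected members, and in each list up to 2 genes per direction by log2FC, with NPAT, SLBP and PON1; PCNA was added after its value was seen, and UHRF1 likewise. Each result was also computed with DESeq2 1.42.0, with limma-voom (limma 3.58.1), with RLE factors, without a filter or with a minimum of 10 counts per library, with the replicate block, and without each library; after seeing the data, sums of genes that share reads and no rounding were added. Replicate numbers did not pair the libraries (correlations of same-numbered deviations 0.03, −0.06 and −0.02). Coordinates, coding bases and stem-loops came from GENCODE v29 (GRCh38) and promoters from RefSeq (GRCh38.p14).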

Additional observations from a re-analysis of the deposited data

How the results depend on the processing

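RLE factors, a minimum of 10 counts per library, the replicate block, limma-voom, summed shared genes and no rounding left 5 to 7 members called at an unadjusted p under 0.05. Of all genes tested, 9.62% to 11.5% were called under these settings. DESeq2 called 5 members and 7.58% of all genes tested. No called member was higher under any of these settings. Without a filter 59 members were tested and 11 were called, where 9.95% of all genes tested were called. Among the 11 were H2BC7 (0 counts in NC, at most 3 in PON1-OE) and H4C11 (counts in PON1-OE 1 only), both higher. Leaving out 1 library gave 1 to 9 called members, where 8.17% to 12.9% of all genes tested were called. No member passed an adjusted p under 0.05 except 1 without NC replicate 2 (range 0 to 1); DESeq2 gave no adjusted p for any member, as its filter on mean level left them out. The median log2FC of the members stayed between −0.21 and −0.10. Entries of the 4 lists past the adjusted threshold numbered 1 without a filter and 0 to 4 when 1 library was left out. The 4 were those without NC replicate 2, with E2F1 counted in 2 lists. The numbers did not pair the libraries, and the replicate block kept 6 called members and a median log2FC of −0.15 (40 instead of 81 genes passed the adjusted threshold over all genes).

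The log2 ratio of the summed CPM was −0.20, and −0.26 to −0.15 when 1 library was left out. The number of members seen was 38 at more than 3 counts in any library, 24 at more than 3 in every library, 18 at 10 or more in every library and 16 at a mean of 1 CPM. Exon and coding length gave the same genes in 8 of the 10 first ranks. Over 15 named members and 14 alternatives, 204 values were had, of which 18 lost and 17 gained an unadjusted p under 0.05. H2AC7, at 0.28, ranged from −0.20 (NC replicate 3 left out) to 1.01 (NC replicate 2 left out) and was also below 0, at −0.09, with PON1-OE replicate 2 left out. The cause was not tested. Counts under 50 limit the less abundant members to wide errors, and 3 libraries against 3 cannot go below p = 0.1 in an exact permutation test.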
